A study of Mus musculus with 27 samples.

Results

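The genes described here are 10 members of the semaphorin guidance system: the ligands Sema3a, Sema3c, Sema3e, Sema5a and Sema6d, the receptors Plxna2, Plxna4 and Plxnd1, and the co-receptors Nrp1 and Nrp2. They were taken by name, as 10 of the 31053 gene IDs counted in single-nucleus RNA-seq (snRNA-seq) libraries of mouse hippocampus. snRNA-seq counts RNA molecules, through unique molecular identifiers (UMIs), in each isolated nucleus. On GRCm38 the plus strand holds Sema3a at chr5:13125414-13602565, Sema3c at chr5:17574281-17730268, Sema3e at chr5:14025276-14256689, Sema5a at chr15:32244810-32696341, Sema6d at chr2:124089969-124667770 and Plxna2 at chr1:194618218-194816869, and the minus strand Plxna4 at chr6:32144268-32588192 and Plxnd1 at chr6:115954811-115995005. UMIs were counted over whole genes, exons and introns.

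Each of the 27 libraries came from 1 mouse. Of 9 mice without the tau transgene, 5 were Cgas+/+, 2 Cgas+/- and 2 Cgas-/-. Of 18 mice with it, 6 each were P301S Cgas+/+, P301S Cgas+/- and P301S Cgas-/-. P301S is a human tau transgene with a mutation that causes inherited dementia, driven by the prion protein (Prnp) promoter, and Cgas encodes a sensor of cytosolic DNA. The Prnp promoter is active in neurons and also in other brain cells, and the Cgas alleles were carried by every cell of the animal, so an effect cannot be assigned to the cell type in which it is seen. The Cgas+/- and Cgas-/- groups without P301S were all male, while the other groups held males and females. The study's methods describe mature adult littermates.

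Semaphorins are secreted or membrane-bound cues that steer growing axons and shape synapses and vessels. They act through plexins, which are transmembrane receptors. Most secreted class 3 semaphorins need a neuropilin beside an A-type plexin, whereas Sema3e binds Plxnd1 directly and membrane-bound class 5 and 6 semaphorins bind plexins without a neuropilin. In the hippocampus the family is known for layering mossy fibres and for placing dendrites and synapses.

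After filters 204852 nuclei remained, 5840 to 12572 per library, with library medians of 2225 to 8996 UMIs per nucleus. Of 45 clusters, 37 were named from marker genes as 14 classes, and excitatory and inhibitory neurons were divided further into 4 and 5 subtypes. The label hippocampus held only in part: cortical neurons made up 5.10% to 82.8% of the excitatory nuclei of a library, and dentate granule neurons 0.760% to 59.4%. A set of 5 libraries stood apart, 4 of them with dentate granule neurons under 5% of excitatory nuclei and 1 with 49.9% of its nuclei unnamed (P301S Cgas+/+ 1 and 3, P301S Cgas+/- 1, P301S Cgas-/- 2 and 6). Any 2 libraries shared 8 to 48 cell barcodes, at most 0.570% of the smaller library. RNA of Cgas (listed as Mb21d1) did not follow the genotype labels in microglia, with 39.5 to 58.4 CPM (UMIs of the gene per 1000000 UMIs of the class) in the libraries labelled P301S Cgas-/- and 25.8 to 55.4 in those labelled P301S Cgas+/+. In excitatory neurons Mb21d1 was sparse, at 1.60 ± 0.456 CPM in P301S Cgas+/+, 1.30 ± 0.353 in P301S Cgas+/- and 0.984 ± 0.222 in P301S Cgas-/- libraries, with a log2 difference of -0.75 ± 0.21 for deletion (SE, edgeR adjusted p = 0.209). Without P301S the libraries labelled Cgas-/- were at 1.82 ± 0.368 CPM there and those labelled Cgas+/+ at 1.38 ± 0.196, so RNA gave no uniform check of the labels. Whether the altered allele still yields counted RNA was not tested.

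Levels are in CPM, the share of a gene in all UMIs of that class in that mouse, given as mean ± SD over mice with at least 20 such nuclei. They are compared within a gene. Differences between classes are descriptions, with no test.

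**Figure D1:**
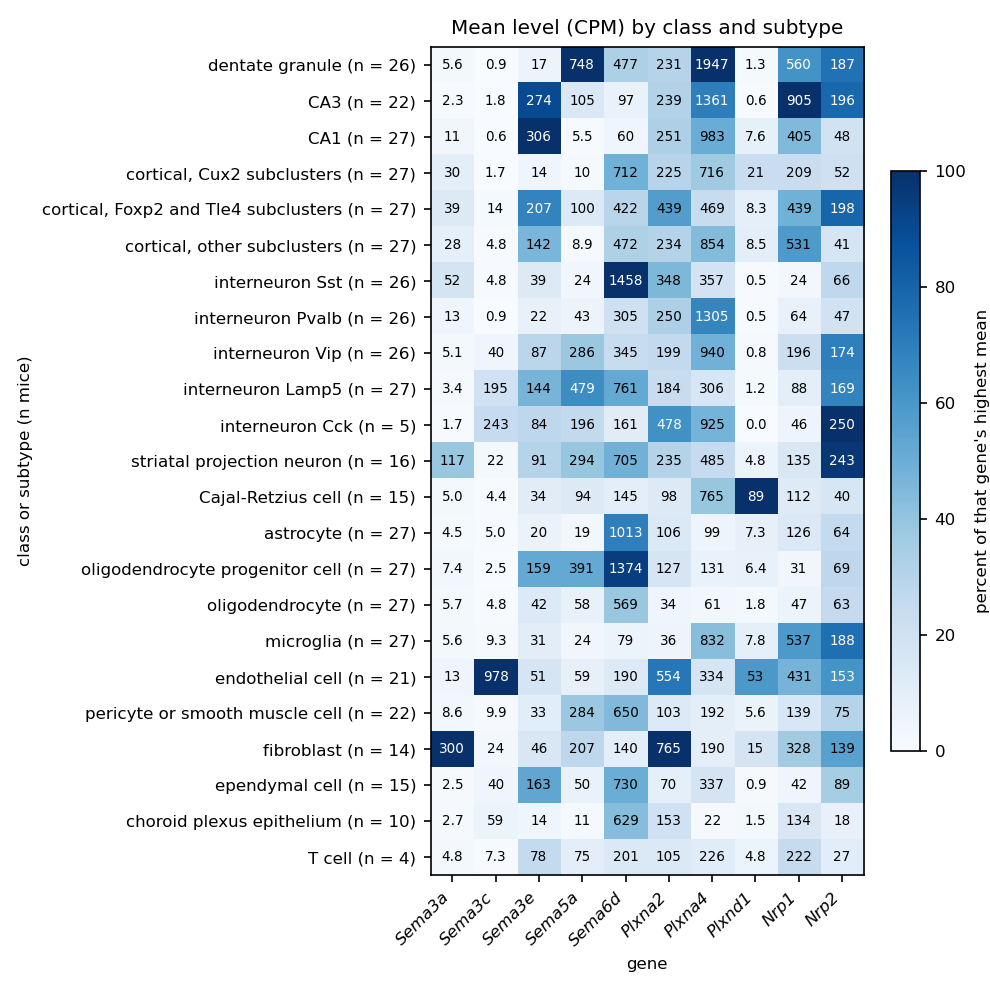
Mean level of each gene (columns) in each class or subtype (rows, with the number of mice), printed in CPM and shaded as percent of that gene's own highest mean. Sema3a is darkest in fibroblasts, Sema3c in endothelial cells, Sema5a and Plxna4 in dentate granule neurons, Nrp1 in CA3 and Plxnd1 in Cajal-Retzius cells.

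Among the secreted ligands, Sema3a, a class 3 repellent of cortical and sensory axons, was highest in fibroblasts at 300.5 ± 135 CPM (n = 14). It followed in striatal projection neurons at 117 ± 93.4 CPM (n = 16) and Sst interneurons at 52.0 ± 25.9 CPM (n = 26). Fibroblasts exceeded striatal projection neurons in 11 of the 11 mice with both, while striatal projection neurons and Sst interneurons were not separated (9 of 15 mice). Cortical neurons held 38.6% of the Sema3a UMIs of a mouse on average, with a range of 5.76% to 73.4%.

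Sema3c, a class 3 ligand known in heart and vessel development, was highest in endothelial cells at 978 ± 231 CPM (n = 21). Among neurons it was found mainly in Cck interneurons at 243 ± 73.3 CPM (n = 5) and Lamp5 interneurons at 195 ± 42.0 CPM (n = 27), against 0.912 CPM in dentate granule neurons. Lamp5 interneurons held 25.0% of its UMIs on average.

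Sema3e, the class 3 ligand that binds Plxnd1 without a neuropilin, marked the pyramidal fields. It reached 306 ± 57.2 CPM in CA1 (n = 27) and 274 ± 55.4 CPM in CA3 (n = 22), which did not differ beyond their spread (CA1 higher in 16 of 22 mice). Cortical subclusters with Foxp2 and Tle4 were next at 207 ± 63.3 CPM. Dentate granule neurons were at 17.1 CPM.

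The membrane-bound Sema5a was high in dentate granule and low in pyramidal neurons, opposite to Sema3e. Dentate granule neurons carried 748 ± 121 CPM (n = 26), above Lamp5 interneurons at 479 ± 98.96 CPM in 26 of 26 mice, while CA3 was at 105 ± 86.4 CPM (n = 22) and CA1 at 5.47 CPM. Oligodendrocyte progenitor cells (OPCs), the dividing precursors of myelinating cells, followed with 391 ± 68.7 CPM (n = 27). Dentate granule neurons held 58.8% of all Sema5a UMIs of a mouse on average.

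Sema6d, a membrane-bound ligand of A-type plexins, was broad. Sst interneurons had 1458 ± 423 CPM (n = 26) and OPCs 1374 ± 155 CPM (n = 27), with Sst interneurons higher in 15 of 26 mice, and astrocytes were next at 1013 ± 382 CPM (n = 27). CA1 neurons were at 60.1 CPM.

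**Figure D2:**
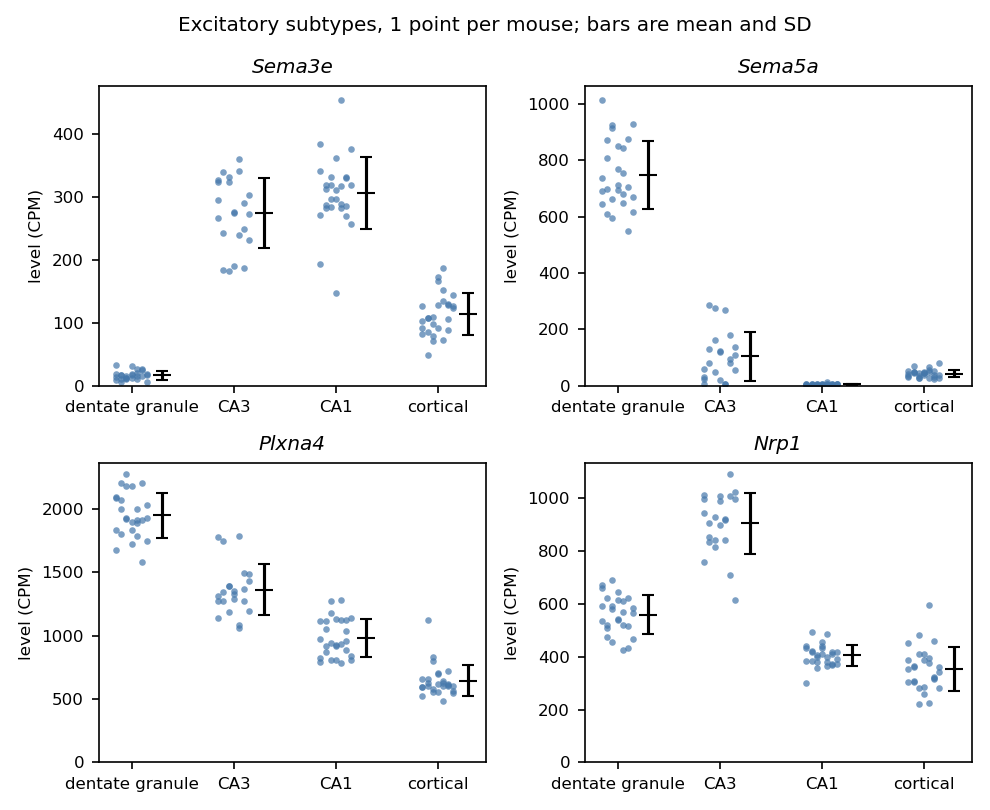
Levels (CPM, linear axis from 0) of Sema3e, Sema5a, Plxna4 and Nrp1 in dentate granule, CA3, CA1 and cortical excitatory neurons, with 1 point per mouse and bars for mean and SD. Sema5a is high and Sema3e low in dentate granule neurons, with the opposite in CA3 and CA1, Plxna4 falls from dentate granule to cortical neurons, and Nrp1 is highest in CA3.

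Of the receptors, Plxna2, an A-type plexin that binds class 6 semaphorins, was highest in fibroblasts at 765 ± 235 CPM (n = 14) and endothelial cells at 554 ± 125 CPM (n = 21), and was higher in fibroblasts in 9 of 11 mice. Among excitatory neurons the subfields lay close together, at 231 CPM in dentate granule neurons, 239 CPM in CA3 and 251 CPM in CA1.

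Plxna4, the A-type plexin that partners neuropilins and also binds class 6 semaphorins, stepped down through the hippocampus. Dentate granule neurons carried 1947 ± 179 CPM (n = 26), CA3 1361 ± 201 CPM (n = 22) and CA1 983 ± 151 CPM (n = 27), and dentate granule neurons exceeded CA3 in 22 of 22 mice. Pvalb interneurons had 1305 ± 118 CPM (n = 26), not separated from CA3 (11 of 21 mice). Microglia carried 832 CPM, whereas oligodendrocytes were at 60.8 CPM.

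Plxnd1, the receptor of Sema3e, was the sparsest receptor, with 8731 UMIs in all named nuclei. It was highest in Cajal-Retzius cells, the early-born neurons of the outer layers, at 88.7 ± 38.9 CPM (n = 15), and next in endothelial cells at 52.9 ± 26.9 CPM (n = 21). In CA1 and CA3, where Sema3e was high, Plxnd1 was at 7.59 and 0.592 CPM.

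The co-receptor Nrp1, which also binds vascular endothelial growth factor, was highest in CA3 at 905 ± 115 CPM (n = 22), above dentate granule neurons at 560 ± 72.9 CPM in 22 of 22 mice. Microglia followed at 537 ± 217 CPM (n = 27), below dentate granule neurons in 17 of 26 mice. Sst interneurons were at 23.6 CPM and OPCs at 30.9 CPM.

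Nrp2, the co-receptor preferred by Sema3f, had no clear top. Cck interneurons (250 ± 65.3 CPM, n = 5), striatal projection neurons (243 ± 204 CPM, n = 16), cortical subclusters with Foxp2 and Tle4 (198 ± 75.0 CPM, n = 27), CA3 (196 ± 32.4 CPM, n = 22) and microglia (188 ± 80.7 CPM, n = 27) were not separated from their neighbours in this order.

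Over the 23 classes and subtypes, the members most alike in pattern were Sema5a and Nrp2 (Pearson's r = 0.60 on log levels) and the least alike Sema6d and Nrp1 (r = -0.58). Among 16178 other genes, those closest to each member included Coch for Sema3a (r = 0.85), Fgd5 for Sema3c (r = 0.78), Adarb2 for Sema5a (r = 0.74), Flrt2 for Plxna2 (r = 0.81) and Ptk2b for Nrp1 (r = 0.80). For Plxna4 the closest was Plxna4os3 (r = 0.87), a transcript annotated opposite Plxna4, and reads of such partners may not be fully told apart. These points share libraries and depth.

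The study asked how tau pathology and Cgas dose alter gene expression, so member levels were compared between genotypes in 8 classes and subtypes with edgeR's quasi-likelihood test on UMI sums per mouse, with sex as a covariate and p-values adjusted over all genes tested in a class. A call is an adjusted p under 0.05. CA1 and cortical neurons were tested as subtypes and also within all excitatory neurons, so their pairs are not separate tests. Between P301S Cgas+/+ and Cgas+/+ mice, 71 of 80 gene-and-class pairs of members passed the low-count filter and 0 were called, where 0.0179% of all 100388 pairs were. DESeq2 called 1 member pair, and 0.454% of all pairs fitted. At an unadjusted p under 0.05 there were 11, beside 5.61% of all pairs.

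The strongest of these was Nrp2 in microglia. Its levels were 90.8, 101, 110, 112 and 123 CPM in the 5 Cgas+/+ mice and 146 to 323 CPM (median 226) in the 6 P301S Cgas+/+ mice, with no overlap. Its log2 difference came to 1.10 ± 0.29 (SE, edgeR adjusted p = 0.0970). DESeq2 gave 1.09 with an adjusted p of 0.0118, so this call depended on the tool.

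Sema6d in astrocytes ranged from 664 to 1121 CPM in Cgas+/+ mice (664, 704, 830, 903 and 1121) and from 689 to 2031 CPM (median 1456) in P301S Cgas+/+ mice, of which 4 of 6 lay above every Cgas+/+ mouse. The log2 difference was 0.76 ± 0.24 (SE, edgeR adjusted p = 0.260). Plxna4 in OPCs was at 83.6, 99.2, 112, 116 and 154 CPM in Cgas+/+ mice and 119 to 247 CPM (median 152) in P301S Cgas+/+ mice, of which 3 of 6 lay above. Its log2 difference was 0.51 ± 0.16 (SE, edgeR adjusted p = 0.439). Slc17a7, a transporter of excitatory neurons, served as a gauge of free neuronal RNA in other classes. Plxna4 in OPCs stood at 12.9% of its level in excitatory neurons, beside 12.8% for Slc17a7, and was above Slc17a7 in only 11 of 27 mice, so these values are not read as OPC expression.

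Between P301S Cgas-/- and P301S Cgas+/+ mice 0 of 71 pairs were called by edgeR and 0 by DESeq2, beside 0% and 0.0747% of all pairs, and 12 had an unadjusted p under 0.05, beside 5.89% of all. Between P301S Cgas+/- and P301S Cgas+/+ mice 0 of 71 were called by either tool, beside 0.000996% of all pairs with edgeR and 0.128% with DESeq2, and 11 had an unadjusted p under 0.05, beside 5.42%. Both comparisons use the same P301S Cgas+/+ mice.

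The neuropilins in inhibitory neurons were among the pairs of smallest p in both. Nrp2 was at 99.9 to 194 CPM (median 131) in P301S Cgas+/+ mice, 51.8 to 107 CPM (median 74.0) in P301S Cgas+/- mice and 48.7 to 111 CPM (median 76.9) in P301S Cgas-/- mice. The groups overlapped in 2 of the 6 P301S Cgas+/- mice and 1 of the 6 P301S Cgas-/- mice. The log2 differences were -0.89 ± 0.22 (SE, edgeR adjusted p = 0.384) with 1 copy lost and -0.87 ± 0.22 (SE, edgeR adjusted p = 0.429) with deletion.

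Nrp1 in inhibitory neurons was at 51.8 to 146 CPM (median 85.4) in P301S Cgas+/+ mice, 36.6 to 67.9 CPM (median 48.6) in P301S Cgas+/- mice and 31.5 to 93.0 CPM (median 47.8) in P301S Cgas-/- mice. Of the 6 mice in each, 1 P301S Cgas+/- and 2 P301S Cgas-/- mice lay within the P301S Cgas+/+ range. The log2 differences were -1.02 ± 0.29 (SE, edgeR adjusted p = 0.458) and -0.87 ± 0.29 (SE, edgeR adjusted p = 0.607). Both genes stood above the free-RNA gauge in inhibitory neurons in 27 of 27 mice: Slc17a7 was at 5.76% of its excitatory level there, Nrp1 at 17.3% and Nrp2 at 92.9%. This class sums several interneuron subtypes. In its sums a shift in their shares, fewer cells of a type or less RNA per cell cannot be told apart, and genotypes were not tested within the subtypes. By library, cortical neurons were 5.10% to 74.3% of excitatory nuclei in P301S Cgas+/+ mice. They were 46.1% to 65.0% in P301S Cgas+/- mice and 45.9% to 82.8% in P301S Cgas-/- mice. The part of this regional content in the neuropilin differences was not tested.

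In OPCs the pairs of smallest p were Nrp1 with 1 copy lost and Plxna4 with deletion. Nrp1 was at 21.4 to 59.8 CPM (median 28.8) in P301S Cgas+/+ mice and 16.6 to 26.5 CPM (median 20.7) in P301S Cgas+/- mice, a log2 difference of -0.89 ± 0.24 (SE, edgeR adjusted p = 1.0). Plxna4 was at 119 to 247 CPM (median 152) in P301S Cgas+/+ mice and 97.6 to 144 CPM (median 115) in P301S Cgas-/- mice, a log2 difference of -0.47 ± 0.16 (SE, edgeR adjusted p = 0.993). In each, 3 of 6 mice of the second group lay within the range of the first. Nrp1 in OPCs stood at 7.38% of its excitatory level, above Slc17a7 in only 3 of 27 mice, so neither its values nor those of Plxna4 are read as OPC expression.

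Pooling the Cgas genotypes compared the 18 mice with P301S with the 9 without, with Cgas genotype and sex in the fit. Of 75 pairs tested, 5 were called, 3 higher and 2 lower with P301S, beside 1.82% of all 107441 pairs. At an unadjusted p under 0.05 there were 20, beside 10.8% of all. Not tested for low counts were Sema3c in CA1 and OPCs, Plxnd1 in inhibitory neurons and OPCs, and Sema3a in microglia. The 5 called were 3 in microglia, 1 in astrocytes and 1 in OPCs. In CA1, cortical, excitatory and inhibitory neurons and oligodendrocytes 0 members were called, beside 0.0336% of all pairs of genes in these 5. In 4 of the 5, 1 or 2 members had an unadjusted p under 0.05, beside 7.29% of all pairs there. In dentate granule neurons, tested after the data were seen, edgeR called 0 of 10 members, beside 0.468% of genes. There, 2 members had an unadjusted p under 0.05, beside 1630 of 14317 genes.

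In microglia, the resident immune cells of the brain, Nrp1 and Nrp2 rose and Plxna4 fell, 3 of the 9 members tested, where 13.5% of all genes tested in microglia were called (8.23% higher and 5.25% lower). Nrp2 was at 90.8 to 128 CPM (median 110) without P301S and 109 to 323 CPM (median 220) with it, and 16 of 18 P301S mice lay above every mouse without. The change was 2.09-fold, a log2 difference of 1.06 ± 0.19 (SE, edgeR adjusted p = 0.000984).

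Nrp1 in microglia was at 321 to 476 CPM (median 367) without P301S and 288 to 1011 CPM (median 613) with it. In 12 of 18 P301S mice it lay above the range of mice without, in 5 within it and in 1 below. The change was 1.68-fold, a log2 difference of 0.75 ± 0.21 (SE, edgeR adjusted p = 0.0177).

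Plxna4 in microglia was at 876 to 1146 CPM (median 1088) without P301S and 405 to 1104 CPM (median 727) with it, and 11 of 18 P301S mice lay below every mouse without. The level with P301S was 0.663 of that without, a log2 difference of -0.59 ± 0.18 (SE, edgeR adjusted p = 0.0252). The spread among P301S mice was wide in all 3 Cgas genotypes.

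**Figure D3:**
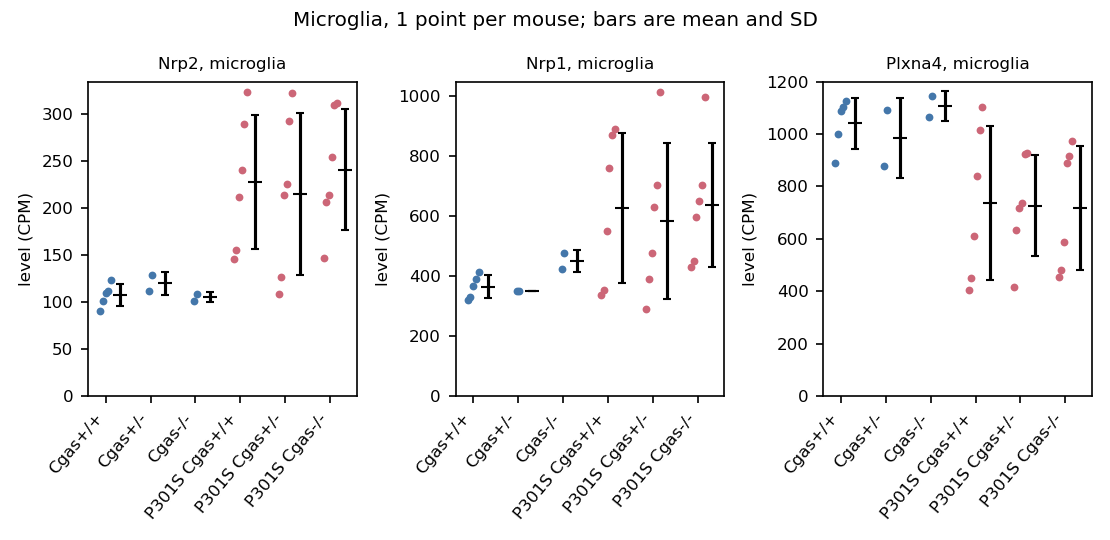
Levels in microglia (CPM, axis from 0) of Nrp2, Nrp1 and Plxna4 by genotype, with 1 point per mouse and bars for mean and SD. Nrp2 lies above the mice without P301S in 16 of 18 P301S mice, Nrp1 in 12 of 18, and Plxna4 lies below in 11 of 18.

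Microglia fell into 2 clusters, chosen for a closer look after their values were seen. The smaller one, led by F13a1, Mrc1, Cd74, Lpl, Lgals3 and Gpnmb, genes of macrophages and of microglia that take up lipid and debris, held 4.11% ± 1.88 (SD, n = 9) of microglia without P301S and 50.2% ± 31.0 (SD, n = 18) with it. In the 17 mice with at least 20 nuclei of each, Plxna4 was higher in the larger cluster in 17, Nrp1 was higher in the smaller in 17 and Nrp2 in 15. In mice with P301S, Plxna4 was at 996 ± 186 CPM in the larger and 511 ± 128 CPM in the smaller cluster, Nrp1 at 375 ± 90.9 and 765 ± 189 CPM, and Nrp2 at 149 ± 34.9 and 301.1 ± 71.6 CPM. Without P301S only 1 mouse had 20 nuclei of the smaller cluster, with Nrp1 at 1420 CPM and Nrp2 at 67.6 CPM. In microglia as a class, 6 of the 10 leading genes of this cluster rose with P301S in the pooled comparison and 0 fell, beside 8.23% of all genes called higher and 5.25% lower. The 10 were picked from the same nuclei as highest in this cluster, whose share was larger with P301S, so this count is not a separate result. Among those that rose were Lpl (log2 difference 4.53 ± 1.04, SE, edgeR adjusted p = 0.00613), Lgals3 (5.06 ± 1.16, adjusted p = 0.00611) and Cd74 (3.59 ± 0.85, adjusted p = 0.00729), while F13a1 and Mrc1 gave -1.71 ± 0.58 and -1.56 ± 0.52 (adjusted p = 0.0511 for each). Whether nuclei of this cluster differ between mice with and without P301S was not tested. The clusters were built from the same nuclei, on variable genes without semaphorins, plexins and neuropilins, and these values are descriptions.

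Within the larger cluster alone, none of the 3 was called, beside 1.25% of 7845 genes. The log2 differences were 0.41 ± 0.12 for Nrp2 (SE, edgeR adjusted p = 0.0920), 0.10 ± 0.11 for Nrp1 (adjusted p = 0.858) and -0.16 ± 0.09 for Plxna4 (adjusted p = 0.573). In a class sum, a shift in the share of a cluster and a change within its nuclei cannot be told apart.

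Other values moved with P301S in microglia. Of the markers tested, 5 of 9 for microglia, 2 of 5 for macrophages and 2 of 8 for excitatory neurons were lower, as was 1 of 2 for fibroblasts. The 2 excitatory markers were Slc17a7 (log2 difference -0.82 ± 0.20, SE, edgeR adjusted p = 0.00647) and Camk2a (-0.55 ± 0.17, adjusted p = 0.0277). Their direction was that of Plxna4 and opposite to Nrp1 and Nrp2. Higher were 1 of 8 for oligodendrocytes (Mbp, 0.63 ± 0.18), 1 of 4 for committed precursors (Bcas1, 1.32 ± 0.40), 1 of 7 for astrocytes (Gfap, 2.25 ± 0.66) and 1 of 2 for endothelial cells (Flt1, 4.04 ± 0.98), given as log2 differences with SE. The summed level of the endothelial markers was 35.1 to 81.3 CPM without and 15.8 to 264 CPM with P301S, that of the astrocyte markers 503 to 669 and 424 to 748 CPM, and that of the excitatory markers was 320 to 454 CPM without and 219 to 507 CPM with P301S. Slc17a7 stood in microglia at 28.3% of its excitatory level, Plxna4 at 83.2%, Nrp1 at 141% and Nrp2 at 172%, each of the latter 3 above Slc17a7 in 27 of 27 mice. Sema5a, Sema6d and Plxna2 in microglia were at mean levels of 14.8%, 19.3% and 12.6%, below Slc17a7, and are not read as expression there. The part of these markers in the changes was not tested.

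Nrp1 and Nrp2 lie on different chromosomes, at chr8:128358604-128503363 and chr1:62703285-62818695 on the plus strand of GRCm38. Windows of 300 bases from RefSeq (GRCm38.p6), shown because both genes rose in microglia, are given 5′ to 3′. Each runs from 250 bases before to 50 after the RefSeq transcript start, which lies 469 bases after the gene start above for Nrp1 and 32 bases after it for Nrp2, so the Nrp1 window falls inside the annotated gene.
Nrp1, chr8:128358823-128359122: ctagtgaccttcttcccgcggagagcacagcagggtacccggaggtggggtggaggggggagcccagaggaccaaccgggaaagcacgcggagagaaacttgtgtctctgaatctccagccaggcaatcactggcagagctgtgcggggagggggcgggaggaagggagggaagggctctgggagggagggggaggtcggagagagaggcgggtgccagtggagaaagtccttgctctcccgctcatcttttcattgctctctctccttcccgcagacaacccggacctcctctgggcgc
Nrp2, chr1:62703067-62703366: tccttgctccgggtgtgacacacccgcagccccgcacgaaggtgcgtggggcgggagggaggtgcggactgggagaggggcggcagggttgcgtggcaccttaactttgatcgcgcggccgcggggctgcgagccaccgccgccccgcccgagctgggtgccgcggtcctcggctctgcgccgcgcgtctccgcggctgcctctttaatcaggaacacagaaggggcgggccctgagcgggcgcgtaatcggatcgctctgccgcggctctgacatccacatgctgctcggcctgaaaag
On either strand, neither window held GGAAGT, the core of an ETS factor site, or TGANTCA, an AP-1 site, which 23.8% and 7.81% of 32851 promoter windows held. GAGGAA, part of the site of the microglial factor PU.1, was added after the windows had been read. It occurred 1 time in the Nrp1 window and 0 times in the Nrp2 window, and 28.3% of all windows held it. These counts describe letters and were not tested.

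In astrocytes, Plxna2 rose, 1 of 10 members tested, beside 4.06% of all genes (3.19% higher and 0.873% lower). It was at 70.7 to 84.5 CPM (median 76.5) without P301S and 80.7 to 195 CPM (median 114) with it, and 16 of 18 P301S mice lay above every mouse without. The change was 1.61-fold, a log2 difference of 0.69 ± 0.13 (SE, edgeR adjusted p = 0.00633). Sema6d gave a log2 difference of 0.57 ± 0.17 (SE, edgeR adjusted p = 0.0591). Slc17a7 in astrocytes was lower with P301S by -0.67 ± 0.16 on the log2 scale (SE, adjusted p = 0.0154), the opposite direction to Plxna2, while 1 of 10 astrocyte markers was higher, Gfap (1.93 ± 0.41, adjusted p = 0.0122). Their part in the Plxna2 change was not tested. Relative to excitatory neurons Plxna2 was at 37.7% and Slc17a7 at 12.97%, with Plxna2 above in 27 of 27 mice.

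Astrocytes also fell into 2 clusters. The smaller one, led by Myoc, Cd44 and Nrp2 itself, held 11.5% ± 3.68 (SD, n = 9) of astrocytes without P301S and 34.0% ± 20.9 (SD, n = 18) with it. Nrp2 was at 19.6 ± 8.37 CPM in the larger and 223 ± 109 CPM in the smaller cluster, and Sema6d at 812 ± 210 and 1534 ± 448 CPM, both higher in the smaller cluster in 27 of 27 mice. In the smaller cluster Nrp2 was at 339 ± 84.9 CPM without and 165 ± 64.7 CPM with P301S. Plxna2 was at 84.9 ± 14.3 and 145 ± 45.8 CPM, lower in the smaller cluster in 1 of 27 mice.

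Fitted within each cluster, Plxna2 gave a log2 difference of 0.33 ± 0.08 in the larger (SE, edgeR adjusted p = 0.0788), where 0.0158% of genes were called, and 0.78 ± 0.13 in the smaller (SE, adjusted p = 0.000285), where 11.6% were. Within the smaller cluster Nrp2 (-0.96 ± 0.21, adjusted p = 0.00381), Sema5a (-0.97 ± 0.24, adjusted p = 0.00689) and Plxna4 (-0.57 ± 0.17, adjusted p = 0.0252) were lower with P301S, and Sema3c (1.55 ± 0.52, adjusted p = 0.0491) was higher at no more than 25.0 CPM in any mouse. For Nrp2 the whole class gave the other direction and no call (0.43 ± 0.27, adjusted p = 0.427). Sema6d was called in neither cluster, at 0.36 ± 0.13 in the larger (adjusted p = 0.432) and 0.16 ± 0.15 in the smaller (adjusted p = 0.608). In astrocytes as a class, Sema5a and Plxna4 stood at 12.1% and 9.85% of their excitatory levels, above Slc17a7 in only 10 and 8 of 27 mice, and Slc17a7 itself was lower with P301S. Between the clusters, Sema5a was at 36.8 ± 16.9 CPM in the smaller and 14.3 ± 5.43 CPM in the larger (SD, n = 27), higher in the larger in 0 of 27 mice, and Plxna4 was higher in the larger in 8 of 27. Slc17a7 was not compared within the clusters, and the part of free RNA in the lower Sema5a and Plxna4 values there was not tested. Whether the smaller cluster held the same mix of nuclei with and without P301S was not tested. In its sums, a shift in that mix and a change within its nuclei cannot be told apart. The fits within clusters were added after the clusters were seen. Semaphorin, plexin and neuropilin genes were left out of the genes used for clustering.

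**Figure D4:**
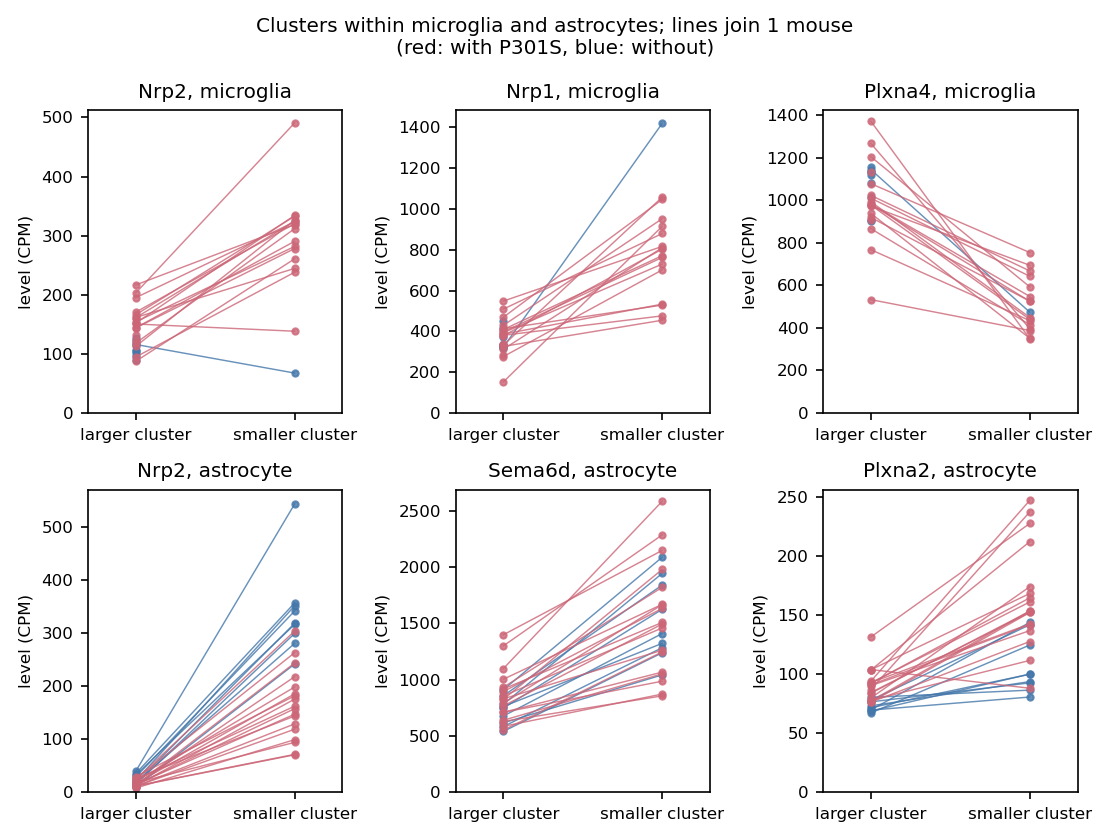
Levels (CPM, axis from 0) of 3 genes in microglia (top) and 3 in astrocytes (bottom) in the larger and smaller cluster, with lines joining the values of 1 mouse (red with, blue without P301S). Plxna4 drops and Nrp1 climbs from the larger to the smaller microglial cluster in all 17 mice, and Nrp2 and Sema6d climb in astrocytes in all 27.

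In OPCs, Sema5a fell, 1 of 8 members tested, beside 0.7% of all genes (0.564% higher and 0.136% lower). It was at 397 to 530 CPM (median 449) without P301S and 258 to 480 CPM (median 353) with it, and 13 of 18 P301S mice lay below every mouse without. The level with P301S was 0.777 of that without, a log2 difference of -0.36 ± 0.09 (SE, edgeR adjusted p = 0.0411). Sema5a in OPCs was at 285% of its excitatory level, above Slc17a7 in 27 of 27 mice, and edgeR called no fixed marker of any class in OPCs. Among excitatory neurons Sema5a was highest in dentate granule neurons, while Slc17a7 gauges all of them. Dentate granule neurons were 8.03% to 59.4% of excitatory nuclei without P301S and 0.760% to 57.2% with it. The part of free dentate RNA in the Sema5a fall was not tested. The Sema5a call was lost in 12 of the 27 fits that left out 1 mouse.

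**Figure D5:**
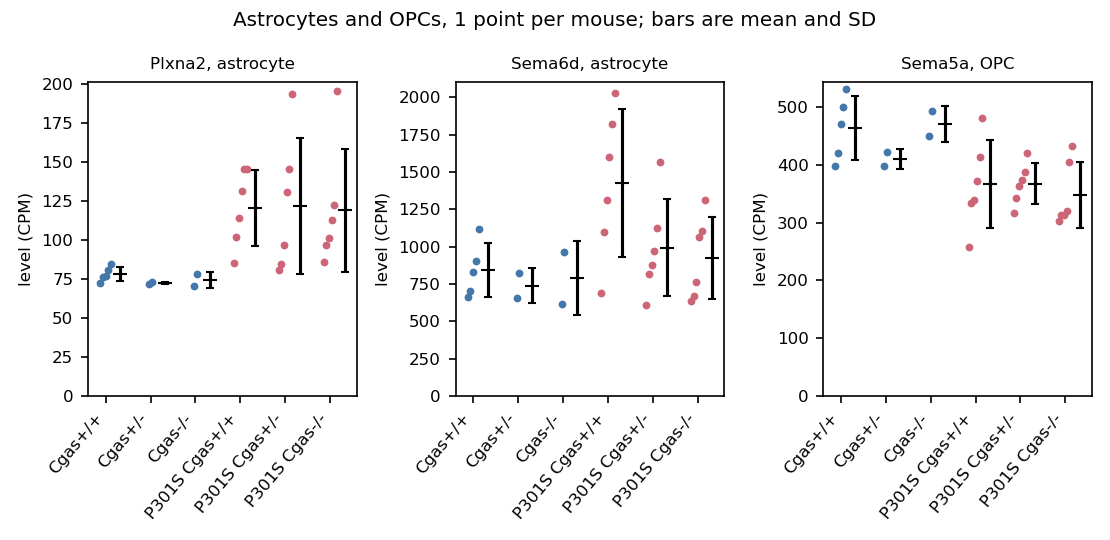
Levels (CPM, axis from 0) of Plxna2 and Sema6d in astrocytes and of Sema5a in OPCs by genotype, with 1 point per mouse and bars for mean and SD. Plxna2 lies above the mice without P301S in 16 of 18 P301S mice, and Sema5a below in 13 of 18.

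Without the 5 libraries that stood apart, 2 of the 5 pairs were called, Nrp2 in microglia (log2 difference 1.01, edgeR adjusted p = 0.00857) and Plxna2 in astrocytes (0.77, adjusted p = 0.0297). Nrp1 and Plxna4 in microglia were at 0.65 (adjusted p = 0.0962) and -0.44 (adjusted p = 0.0791), and Sema5a in OPCs at -0.26 (adjusted p = 0.180). With the Cell Ranger version in the matrix headers as a block, all 5 pairs were called. The share of all pairs called in that fit is not given here, so this count has no background beside it. Every library of version 3.0.2 came from a male, and all Cgas+/- and Cgas-/- mice without P301S had this version. Version was therefore not separate from sex and genotype. Whether the P301S effect differed with Cgas dose was tested as an interaction in 150 pairs, of which edgeR called 0, beside 0.00186% of all pairs, with a smallest adjusted p of 0.104 and 23 at an unadjusted p under 0.05, beside 5.46% of all pairs.

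Of 54 other genes of the pathway, 52 were tested in the pooled comparison, in 354 pairs. In 8 pairs the gene rose and in 4 it fell, from 11 genes, beside 1.82% of all pairs called, with a median log2 difference of -0.01 over the pairs. By class, 3 rose and 3 fell of 31 tested in microglia (13.5% of all genes called), 4 rose and 1 fell of 47 in astrocytes (4.06%) and 1 rose of 43 in OPCs (0.7%). Other semaphorins gave 3 higher and 3 lower of 93 pairs, and other plexins 0 of 42. Further co-receptors gave 3 higher of 43 pairs, and intracellular mediators 2 higher and 1 lower of 176. These counts stand beside the same 1.82% of all pairs, and differences between the roles were not tested. The 3 co-receptor pairs include Flt1 in microglia, the same value as that of the endothelial marker given above. Met, a receptor tyrosine kinase that couples to plexins, rose in astrocytes (log2 difference 3.34 ± 0.67, SE, edgeR adjusted p = 0.00908). Sema4d, a membrane-bound ligand of B-type plexins, rose in microglia (0.34 ± 0.07, adjusted p = 0.00329), and Sema3d, a secreted class 3 ligand, rose in OPCs (0.57 ± 0.13, adjusted p = 0.0450). In each of the other 3 comparisons edgeR called 0 of 345 pairs of these genes. Of all pairs, 0.0179% were called between P301S Cgas+/+ and Cgas+/+ mice, 0% for deletion and 0.000996% for loss of 1 copy.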

How the data were processed

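Nuclei of frozen hippocampus were profiled with droplet-based 3′ chemistry in 27 libraries of 6 genotype groups. The authors aligned reads to mm10 with Cell Ranger, counting unspliced transcripts, and deposited raw UMI counts per gene and nucleus. The matrix headers name version 3.0.2 in 12 libraries and 3.1.0 in 15. The annotation release is not given in the sources used here.

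From these counts, barcodes holding 200 to 4000 genes and no more than 5% of UMIs from mitochondrial genes passed, and those of highest Scrublet score were dropped at 0.8% per 1000 barcodes (16429 nuclei). Nuclei were clustered with scanpy 1.11.5 (2000 variable genes, 30 components, 15 neighbours, Leiden resolution 1). Genes of the semaphorin, plexin and neuropilin families were left out of the variable genes. Clusters were named when at least 3 fixed markers were enriched, with no competing class. UMIs were summed per mouse and class, and sums of at least 20 nuclei were tested with edgeR 4.0.16 (TMM, filterByExpr, quasi-likelihood, Benjamini-Hochberg), on 23 mice of 4 groups or all 27 mice for the pooled P301S comparison, with sex as a covariate. DESeq2 1.42.0 was an alternative. The test was also run on counts simulated for microglia and cortical neurons, from dispersions that edgeR had estimated. These counts held no differences in region or software version, so that run cannot check the test against such differences. Clusters, the 5 libraries, dentate granule neurons and interactions were examined after the data were seen. Named genes were all 10 members, and per comparison the called pairs and the 3 of smallest p, with at most 3 other pathway genes. The members and lists were chosen with earlier results of these data known. Library totals were 46091490 to 79484316 UMIs, and intervals of counts were not needed since comparisons rest on mice. Replicates are separate mice.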

Additional observations from a re-analysis of the deposited data

Results flagged for a closer look

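Among 40 sets of group values of the called and named members examined for a mouse far from its group, 1 stood out, and about 1 in 20 would by chance. In P301S Cgas-/- mice, Plxna2 in astrocytes was at 195 CPM in replicate 5 and at most 122 CPM in the other mice of the group, whose lowest value was 85.6 CPM. The gap was 0.667 of the range of the 6 mice. Leaving out any 1 mouse kept the pooled Plxna2 call, with log2 differences of 0.63 to 0.76.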

How the results depend on the processing

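No paired analysis was possible because the replicate numbers follow accession order and each mouse gave 1 library. In the comparison of P301S Cgas+/+ with Cgas+/+ mice, the members called went from 0 to 1 with DESeq2 (0.454% of all pairs called) and 3 with no low-count filter (0.457%), and were 0 to 1 when 1 mouse was left out (1 without P301S Cgas+/+ replicate 2, Nrp2 in microglia, with 0.437% of all pairs called). In the pooled comparison the 5 calls (1.82% of all pairs called) became 9 with no low-count filter (1.3%) and 2 without the 5 libraries that stood apart (0.939%), and ranged from 3 to 7 when 1 mouse was left out (3 without Cgas-/- replicate 1, with 1.19% of all pairs called). Counts for deletion and for loss of 1 copy were 0 under every setting run. Plxna4 in microglia lost its call without Cgas+/- replicate 2 (adjusted p = 0.0620), Cgas-/- replicate 1 (0.0596) or Cgas-/- replicate 2 (0.0509). Sema5a in OPCs also lost it without sex as a covariate (adjusted p = 0.113) and with high doublet scores kept (0.168). The cause was not tested. No named pair changed direction under any setting run. The class with the highest mean of each member was the same for 10 of 10 with doublets kept or with nuclei of at least 1000 UMIs, and for 8 of 10 in the 9 mice without P301S, where Sema6d led in OPCs and Nrp2 in striatal projection neurons. Low counts kept 5 of the 80 pairs of members out of the pooled test.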
